A study of Mus musculus with 38 samples.

Results

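Promoters of protein-coding genes were sorted by the presence of H3K4me3 and of H3K27me3 in wild-type mouse embryonic stem cells (mESCs). The 6 lists used, 3 of H3K4me3 peaks and 3 of H3K27me3 regions, came from 38 samples of a chromatin immunoprecipitation sequencing (ChIP-seq) series. A promoter was the 2001 bp window that reaches 1 kb to either side of the 5′ end of a gene, and 20807 genes on chromosomes 1 to 19 were classed. A mark was counted as present when at least 2 of its 3 libraries had a call that touched the window. This gave 7027 promoters with H3K4me3 only, 5110 with both marks, 2549 with H3K27me3 only and 6121 with neither, which were 33.8%, 24.6%, 12.3% and 29.4% of all promoters classed.

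The study compared IκBα-WT with IκBα-KO mESCs, and only the IκBα-WT libraries (genotype IkappBalpha+/+, taken at 0 h) set the classes. All cells were of the ES-E14TG2a line, which grows without feeder cells, and were grown in Serum/LIF on gelatin. According to the methods, each genotype had 3 independent clones grown from sorted single cells, and the WT clones had received Cas9 plasmids with scrambled guide RNAs that target no gene. In the IkappBalpha-/- clones exon 1 of Nfkbia, which encodes IκBα, had been targeted with a pair of guide RNAs. Per the labels the 3 WT libraries of a mark shared a single WT input, so an error in that input would enter all 3 of them. The WT libraries stand for 3 clones of 1 line, and the error bars describe the spread among those clones only.

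H3K4me3 is placed at active and poised gene starts by the COMPASS and MLL enzymes, which are drawn to CpG-rich DNA without DNA methylation. H3K27me3 is placed by Polycomb repressive complex 2 (PRC2) and marks developmental genes that are kept silent. In embryonic stem cells many such genes carry both marks at the same promoter, a state called bivalent, and it is known for genes of lineage choice. ChIP-seq was done on a population, so marks on the same nucleosome, on the 2 alleles and in different cells cannot be told apart here.

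The sequences here are examples from the classes with a mark and need not be typical of them. They are the 200 bases upstream of the 5′ end, on the gene's strand of GRCm38, for up to 2 of the genes named below per class, those whose window lay nearest the class median of CpG content and had no annotated exon in these bases. Every CpG is in capitals.
Rpl4, H3K4me3 only, chr9:64173175-64173374, plus strand, 5 CpG: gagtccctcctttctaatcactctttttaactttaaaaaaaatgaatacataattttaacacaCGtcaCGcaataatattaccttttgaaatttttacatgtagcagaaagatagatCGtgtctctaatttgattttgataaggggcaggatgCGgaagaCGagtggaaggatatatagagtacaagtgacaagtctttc
Patz1, H3K4me3 only, chr11:3288674-3288873, plus strand, 13 CpG: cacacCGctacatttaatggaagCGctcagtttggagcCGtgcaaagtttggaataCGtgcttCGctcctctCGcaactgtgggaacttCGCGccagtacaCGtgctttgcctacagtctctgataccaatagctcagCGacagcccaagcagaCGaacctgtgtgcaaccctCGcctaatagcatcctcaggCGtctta
Bub3, both marks, chr7:131560022-131560221, plus strand, 8 CpG: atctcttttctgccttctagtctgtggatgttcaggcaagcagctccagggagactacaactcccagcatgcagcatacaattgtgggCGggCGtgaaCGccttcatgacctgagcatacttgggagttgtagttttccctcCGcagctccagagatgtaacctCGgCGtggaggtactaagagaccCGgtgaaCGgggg
Scarf2, both marks, chr16:17797082-17797281, plus strand, 23 CpG: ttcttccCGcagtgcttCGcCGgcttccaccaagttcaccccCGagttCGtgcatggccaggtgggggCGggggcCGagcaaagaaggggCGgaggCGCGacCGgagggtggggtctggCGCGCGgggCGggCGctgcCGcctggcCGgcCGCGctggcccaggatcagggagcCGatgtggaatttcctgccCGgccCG
Gm17428, H3K27me3 only, chr14:54976733-54976932, plus strand, 0 CpG: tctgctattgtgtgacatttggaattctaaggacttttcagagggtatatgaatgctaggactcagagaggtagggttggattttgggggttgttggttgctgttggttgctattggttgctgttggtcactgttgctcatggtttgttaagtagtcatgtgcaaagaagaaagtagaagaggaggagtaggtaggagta
Hmx2, H3K27me3 only, chr7:131548573-131548772, plus strand, 1 CpG: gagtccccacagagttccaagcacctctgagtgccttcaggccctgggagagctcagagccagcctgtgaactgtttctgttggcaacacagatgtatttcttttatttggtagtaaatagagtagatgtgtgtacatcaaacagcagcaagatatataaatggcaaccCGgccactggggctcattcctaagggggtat
The 200 upstream bases held a median of 13 CpG at promoters with H3K4me3 only and 13 at promoters with both marks, against 3 with H3K27me3 only and 1 with neither. Bub3 and Hmx2 lie in the same H3K27me3 region and differ in H3K4me3.

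Most promoters were classed alike by every library. H3K4me3 was called at 12137 promoters (58.3%) and H3K27me3 at 7659 (36.8%), so both marks were found at 42.1% of the promoters with H3K4me3 and at 66.7% of those with H3K27me3. In 18215 promoters (87.5%) all 3 libraries of each mark gave the same answer. Over the 9 pairings of a single H3K4me3 library with a single H3K27me3 library, the class with both marks held 4909 to 5245 promoters, that with H3K4me3 only 6934 to 7144, that with H3K27me3 only 2387 to 2796, and that with neither 5962 to 6246. The ranges of the classes did not overlap. With only H3K27me3 regions of at least 2-fold over input, the class with H3K27me3 only held 1096 promoters and that with both marks 3826.

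**Figure D1:**
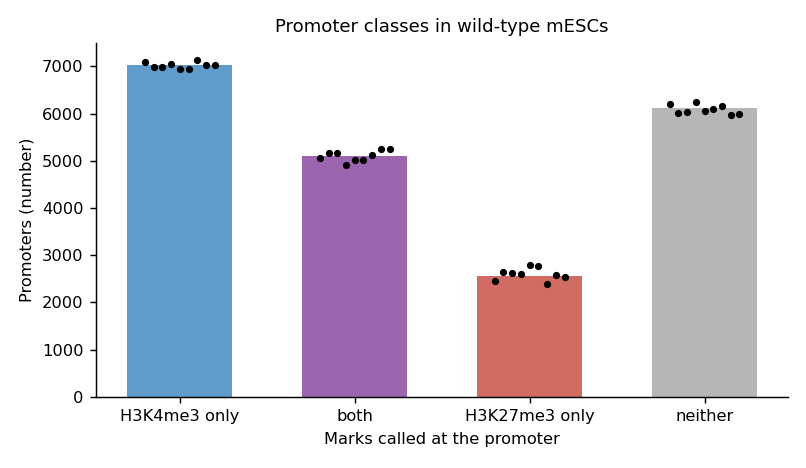
Number of promoters in each class, defined by the marks called at the promoter. Bars are the counts from calls in at least 2 of 3 libraries (7027, 5110, 2549 and 6121), and the 9 black points per class are the counts from each pairing of a single H3K4me3 library with a single H3K27me3 library, which lie close to the bar in every class.

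The H3K4me3 lists held 21283 to 23033 peaks and 16.9 to 18.9 Mb per library, and the H3K27me3 lists 40869 to 45906 regions and 213 to 257 Mb with 8860024 to 9905320 ChIP reads in them. H3K4me3 library 2 and H3K27me3 library 1 called the least sequence of their mark. Pairs of H3K4me3 libraries shared 95.4% to 95.9% of the promoters that either of them called, and pairs of H3K27me3 libraries 84.4% to 86.2%. The methods give the sequencing depth of the libraries, but the MACS2 lists hold no read counts, so the number of reads behind a single H3K4me3 peak did not enter here. Calls near the limit of the rule were small. Promoters with H3K4me3 in exactly 2 libraries (424) had a median peak width of 386 bp and those in exactly 1 library (391), which count as unmarked, 307 bp, against 1038 bp for the 11713 called in 3. For H3K27me3 the same medians were 3900 bp in exactly 2 libraries (853 promoters), 3600 bp in exactly 1 (990) and 8467 bp in 3 (6806).

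The cells were checked against marker genes. Of all promoters, 33.8% were H3K4me3 only, 24.6% had both marks, 12.3% had H3K27me3 only and 29.4% neither. Of 13 pluripotency markers, 9 were H3K4me3 only, among them Pou5f1 (Oct4), Sox2, Nanog, Zfp42 (Rex1), Sall4, Tdgf1, Lin28a, Utf1 and Tfcp2l1, and 12 carried H3K27ac, a mark of active promoters and enhancers that was called at 62.0% of all promoters, against 3 of 8 fibroblast, 4 of 6 primitive endoderm and 1 of 4 blood markers. The exceptions were Klf4 with both marks, Esrrb with H3K27me3 only, and Fgf4 and Dppa5a with neither. When any annotated protein-coding transcript start could carry the mark, Fgf4 was H3K4me3 only and Esrrb had both marks, which could lie at different starts. Of 8 fibroblast markers none was H3K4me3 only, Thy1 had both marks, 4 had H3K27me3 only (Col1a1, Col1a2, Pdgfrb and Postn) and 3 had neither (Col3a1, Dcn and Lum). Of 6 primitive endoderm markers 4 had both marks and 2 H3K27me3 only, and of 4 blood markers (Gata1 lies on the X chromosome, which was not classed) 2 had both marks, 1 H3K27me3 only and 1, Ptprc, neither. Class is a state of chromatin and was not compared with RNA here. Nfkbia was H3K4me3 only in both genotypes, with WT peaks of 975, 1168 and 1180 bp.

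H3K4me3 peaks were narrower and weaker where H3K27me3 was also present. The median width of the widest peak at the promoter was 868, 830 and 928 bp in libraries 1, 2 and 3 for promoters with both marks, and 1106, 1082 and 1162 bp for those with H3K4me3 only. The difference was −241 bp ± 9.45 (SD, n = 3 libraries), in the same direction in 3 of 3 libraries, and the groups did not overlap. The median of the MACS2 fold enrichment over input was 8.72, 8.10 and 9.66 against 11.57, 10.54 and 12.72, a difference of −2.79 ± 0.317 (SD, n = 3). The exact sign-flip permutation test (two-sided) gave p = 0.25 for both, the smallest value that 3 libraries allow, so no comparison of this kind could reach 0.05.

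The tail of the distribution differed in the same direction. Peaks of at least 2000 bp were found at 3.49% ± 0.73 (SD, n = 3) of promoters with both marks and at 9.45% ± 0.766 of those with H3K4me3 only. More than 1 peak touched the window at 23.8% to 25.5% and at 31.4% to 34.8% of these promoters, and the sum of bases covered in the window had medians of 889 to 966 bp and 1134 to 1219 bp, so the order did not depend on taking only the widest peak.

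H3K27me3 regions were wider and stronger where H3K4me3 was also present. Their median width was 7600, 8800 and 9000 bp with both marks and 5600, 7000 and 7400 bp with H3K27me3 only, a difference of 1800 bp ± 200 (SD, n = 3). Library 1 had the narrowest regions in both classes, and the lowest value with both marks lay above the highest with H3K27me3 only. The median log2 ratio of ChIP over input that epic2 gave was 1.36, 1.53 and 1.47 against 0.91, 1.02 and 0.94, a difference of 0.49 ± 0.04 (SD, n = 3). The exact permutation test again gave p = 0.25 for each. Behind these ratios stood medians of 393 to 459 ChIP reads per region with both marks and 206.5 to 257 with H3K27me3 only, and 49.7 to 51.9 and 34.7 to 37.4 reads per kb. With only H3K27me3 regions of at least 2-fold over input, the log2 ratio differed by 0.18, and the width by 467 bp ± 416 (SD, n = 3, exact permutation p = 0.5), so that regions were no longer wider with both marks in 3 of 3 libraries.

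**Figure D2:**
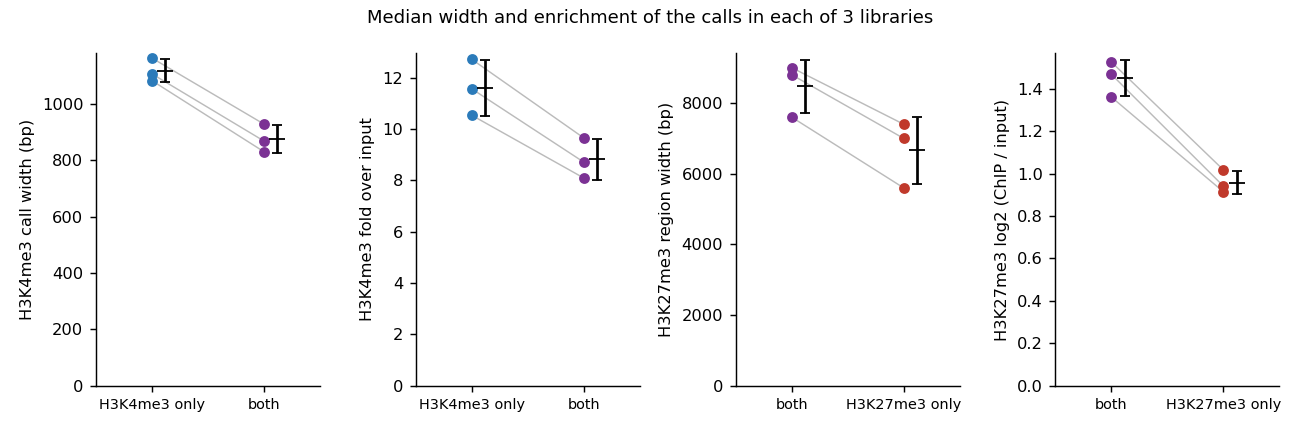
Median width (bp) and enrichment of H3K4me3 peaks (2 left panels, fold over input) and H3K27me3 regions (2 right panels, log2 ChIP over input) by promoter class. Each point is 1 library, grey lines join the same library, and black bars give the mean ± SD of 3 libraries. H3K4me3 lies lower and H3K27me3 higher in the class with both marks, in every library.

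Calls of the 2 marks overlapped at most promoters of the class with both. Coverage here is by called regions, which are wide for H3K27me3, so a base within a region need not carry the mark itself. Using bases covered in at least 2 of 3 libraries, H3K4me3 calls covered a median of 909 bp and H3K27me3 calls all 2001 bp of the window. Calls of both covered a median of 721 bp. H3K4me3 calls in the window lay wholly within H3K27me3 calls at 3646 promoters (71.4%). At 404 promoters (7.91%) the calls shared no base, so that the class also holds promoters with the marks side by side. The first base of the gene was covered by calls of both marks at 2568 promoters (50.3%).

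The shape around the 5′ end differed between marks. H3K4me3 coverage was highest 250 bp downstream, where it reached 84.9% of promoters with both marks and 91.9% of those with H3K4me3 only. H3K27me3 coverage in the class with both marks was lower just upstream of the 5′ end, at 75% at −50 bp, than 950 bp downstream, at 88.2%. In the class with H3K27me3 only it was 85.3% at −50 bp and highest, at 89.2%, 750 bp downstream. At 4950 bp upstream H3K27me3 still covered 45.9% of promoters with both marks and 36.6% of those with H3K27me3 only.

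**Figure D3:**
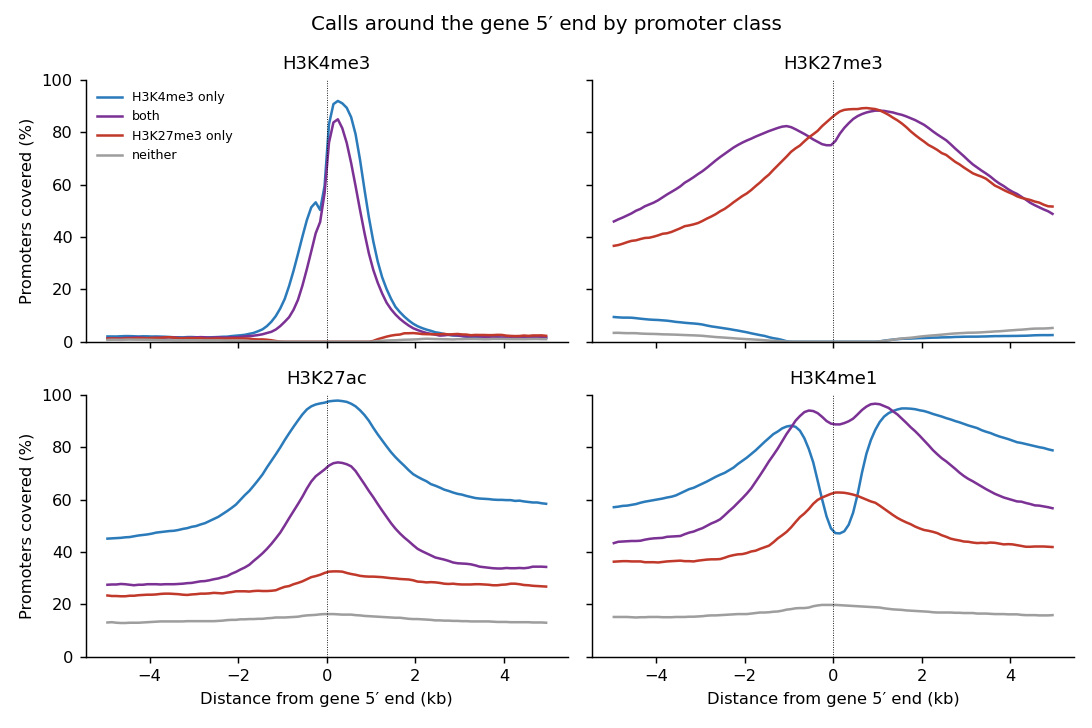
Share of promoters (%) whose position is covered by a call in at least 2 of 3 libraries, in bins of 100 bp over 5 kb on either side of the gene 5′ end (kb, direction of transcription to the right), for 4 marks and 4 classes. H3K4me3 and H3K27me3 define the classes within 1 kb. H3K4me1 covers 49.0% of promoters with H3K4me3 only at −50 bp and 89.0% of those with both marks.

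Of the marks that the classes were not built from, H3K27ac was called at fewer promoters with both marks than with H3K4me3 only. Over all promoters H3K27ac was called in at least 2 of 3 libraries at 62.0%. Per library it was called at 76.9%, 76.1% and 76.6% of promoters with both marks and at 98.2%, 98.5% and 98.3% of those with H3K4me3 only, a difference of −21.8 percentage points ± 0.54 (SD, n = 3, exact permutation p = 0.25). The shares were 37.3% ± 0.689 with H3K27me3 only and 18.8% ± 0.255 with neither. H3K27ac regions over the promoter were also narrower with both marks, with median widths of 4200, 4200 and 4800 bp against 8000, 8200 and 9400 bp. The H3K27ac lists are broad, at 377 to 389 Mb per library. With only regions of at least 2-fold over input, a limit chosen after seeing the data, the shares became 33.9% ± 0.881 with both marks, 72.8% ± 1.79 with H3K4me3 only, 6.90% ± 0.141 with H3K27me3 only and 9.04% ± 0.232 with neither (SD, n = 3). The labels give the same antibody for H3K27ac and H3K4me1 and the methods give another for H3K27ac, and the effect of this on the values was not tested.

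H3K4me1, known from enhancers and from the flanks of active promoters, was called at 72.7% of all promoters in at least 2 of 3 libraries. It touched nearly all promoters with H3K4me3. The shares were 99.4%, 99.4% and 99.5% with both marks and 98.3%, 98.2% and 98.1% with H3K4me3 only, a difference of 1.22 points ± 0.12 (SD, n = 3, exact permutation p = 0.25). With windows of 500 bp on either side the difference was 11.9 points. The first base of the gene was covered by H3K4me1 in at least 2 of 3 libraries at 88.7% of promoters with both marks and at 47.7% of those with H3K4me3 only, a description with no test. At promoters with H3K4me3 only, H3K4me1 coverage was highest, at 94.8%, 1550 bp downstream.

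H3K9me3, the mark of constitutive heterochromatin, was rare at promoters. It was called at 6.14% of them in at least 2 of 3 libraries. Per library the share was 11.9%, 12.1% and 11.4% with neither mark and 3.82%, 3.25% and 3.62% with both, a difference of 8.21 points ± 0.537 (SD, n = 3, exact permutation p = 0.25). With the window from 5000 bp upstream to 100 bp downstream the difference was 13.0 points. The share was 4.53% ± 0.193 with H3K4me3 only and 5.88% ± 0.296 with H3K27me3 only.

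CpG content, read from the reference sequence, divided the classes with H3K4me3 from those without. A window was called CpG-rich when its GC content was at least 50% and its observed over expected CpG ratio at least 0.6, which 30.8% of all windows met. This held for 3618 windows with H3K4me3 only (51.5%), 2619 with both marks (51.3%), 31 with H3K27me3 only (1.22%) and 137 with neither (2.24%). The median CpG ratio was 0.645, 0.614, 0.236 and 0.160, and the median GC content 53.2%, 56.8%, 49.8% and 42.9%, in the same order. Windows with both marks had the highest GC content of the 4 classes and a CpG ratio close to that of H3K4me3 only. The share called CpG-rich depends on the window. With 500 bp on either side it was 71.2% with both marks and 3.46% with H3K27me3 only, and with 5000 bp upstream to 100 bp downstream it was 1.22% and 0.032%. Within CpG-rich windows alone, a choice made after seeing the data, H3K4me3 peaks were still narrower with both marks, by −225 bp ± 26.8 (SD, n = 3), and the H3K27ac share differed by −14.0 points ± 0.669.

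**Figure D4:**
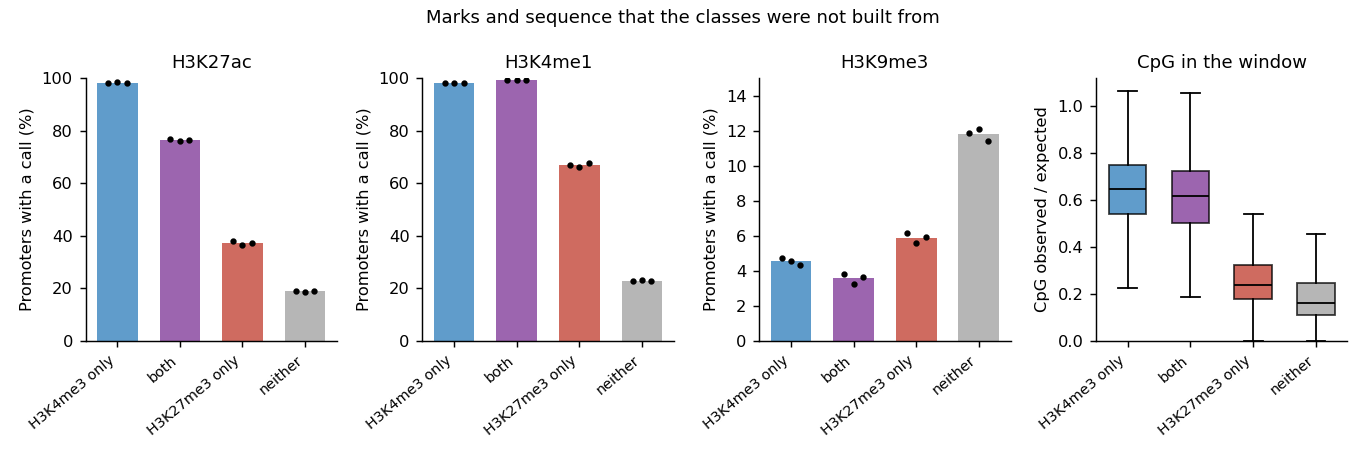
Share of promoters (%) with a call of H3K27ac, H3K4me1 or H3K9me3 by class (bars, mean of 3 libraries, with each library as a black point, and an axis that ends at 15% for H3K9me3), and the CpG observed over expected ratio of the windows (box, quartiles with the median, whiskers to 1.5 times the box). H3K27ac is at 98.3%, 76.5%, 37.3% and 18.8% in the order drawn, and the median CpG ratio is at 0.645, 0.614, 0.236 and 0.160.

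The classes also differed in gene arrangement. A window overlapped that of another protein-coding gene at 28.6% of promoters with H3K4me3 only and at 11.1% of those with both marks, against 5.73% with H3K27me3 only and 5.02% with neither. The median gene length was 22.1, 31.7, 13.2 and 8.96 kb in the same order. Among chromosomes, the share of promoters with both marks was lowest on chromosome 7 (17.4%) and highest on chromosome 12 (34.1%), and the share with neither was highest on chromosome 14 (44.6%).

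H3K27me3 strength was graded within the class with both marks. The 4408 promoters with both marks called in 3 of 3 libraries were divided into 4 groups of 1100 to 1103 by their mean H3K27me3 log2 ratio. H3K27ac was called at 91.6% ± 0.417 (SD, n = 3) of the lowest group, 77.5% ± 0.583 of the next, 66.1% ± 1.48 of the third and 70.5% ± 0.583 of the highest, so the share did not decrease at the last step. H3K4me3 fold enrichment had medians of 9.88 ± 1.05, 9.27 ± 0.899, 8.71 ± 0.856 and 8.10 ± 0.788, and within libraries each step was lower in 3 of 3, with the highest group below the lowest by −1.78 ± 0.271 (SD, n = 3, exact permutation p = 0.25). H3K4me3 width did not follow that order, at 922.7, 852.3, 881.0 and 904.0 bp. The library medians of H3K27me3 width had means of 4867, 7600, 10730 and 13830 bp, and the CpG-rich share was 51.9%, 49.0%, 52.8% and 62.3%.

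Many lists of genes of body plan and lineage choice lay mostly in the class with both marks, which held 24.6% of all promoters, with exceptions. Each gene list is given here by its counts, with no test of the list. Of 39 Hox genes, the homeodomain factors that pattern the body axis, 23 had both marks and 16 H3K27me3 only, and none had H3K4me3 only or neither. Of 23 Irx, Dlx, Msx, Emx and sine oculis homeobox genes 22 had both marks, of 14 Nkx genes 12, of 41 forkhead (Fox) genes 30, of 18 Sox genes 14, and of 20 proneural basic helix-loop-helix genes 15. The Sox genes with H3K4me3 only were Sox2, Sox12 and Sox15, and the Fox genes were Foxh1, Foxk1, Foxk2, Foxm1 and Foxn2. Fewer members had both marks in the lists of T-box (9 of 16), Lhx, Isl and Lmx (7 of 12), POU (7 of 14, with 5 in neither) and Gata genes (2 of 5, with 3 H3K27me3 only). When any annotated protein-coding transcript start counted, 12 of 12 Lhx, Isl and Lmx genes and 4 of 5 Gata genes had both marks. Over all 20807 genes, 5715 did, and each mark could come from a different start of the gene. With that setting T-box had 10, POU 7 and Nkx 11, so the lower Lhx and Gata counts rest on the 5′ end chosen. Of 12 genes of neural progenitors 11 had both marks, with Pax3 the exception, and of 12 genes of the primitive streak and its progeny 9 had both, 2 (Cer1 and Msgn1) H3K27me3 only and 1 (Tbx6) neither.

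**Figure D5:**
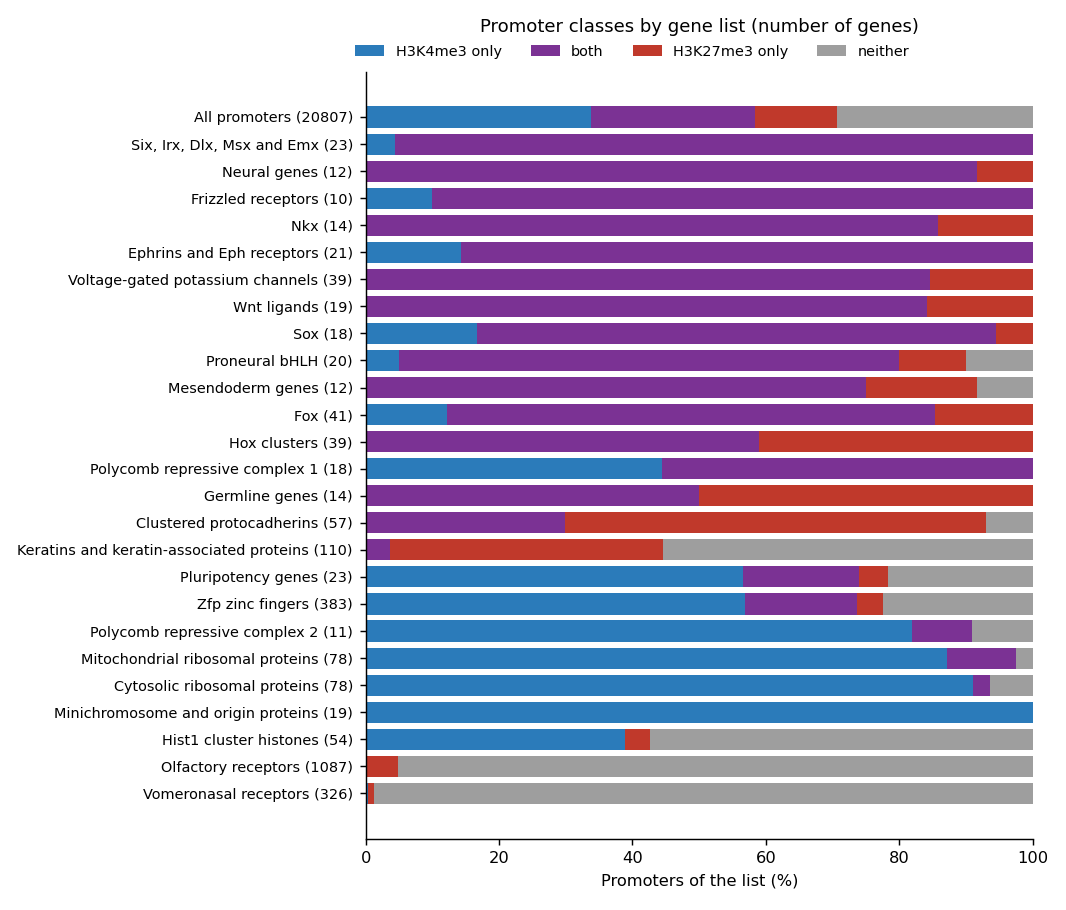
Share of each gene list (%) in the 4 promoter classes, with the number of genes in brackets and all 20807 promoters in the top row. The Nkx, Sox, Fox, Wnt, Frizzled and potassium channel lists lie mostly in the class with both marks, lists of ribosomal and replication proteins in H3K4me3 only, and olfactory and vomeronasal receptors in neither.

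Hox promoters had wide H3K27me3 and narrow H3K4me3. Where called in 3 of 3 libraries, their median H3K27me3 width was 138 kb (39 genes) against 8.47 kb for all 6806 promoters, and their median H3K27me3 log2 ratio was 2.84 against 1.35. Their median H3K4me3 width was 606 bp (20 genes) against 1038 bp for all 11713 promoters. Single regions covered a cluster, so Hox genes are not independent of each other. In library 1 the Hoxd region at chr2:74642401-74780600, from Evx2 to Hoxd1, held 11 promoters, 8 of them with both marks. The Hoxb region held 9 promoters, 4 with both marks, the Hoxc region 9, 7 with both, and the Hoxa region 13, 5 with both. The Hoxd and Hoxa counts include promoters of genes outside the Hox list, such as Evx2. H3K27ac was called in at least 2 of 3 libraries at 38 of the 39 Hox promoters, against 76.4% of the class with both marks and 62.0% of all promoters.

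Hoxd13, at the 5′ end of its cluster, had H3K4me3 peaks of 625, 594 and 690 bp. Hoxb1 had no H3K4me3 call in any library, with H3K27me3 regions of 137400, 141600 and 138400 bp. Hoxb13 lay in a separate region of 53600, 52000 and 49200 bp, and its H3K4me3 was called in library 1 only, at 347 bp. When any transcript start could carry the mark, Hoxa9, Hoxa10, Hoxc4 and Hoxd11 also had both marks, which could lie at different starts.

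Lists of signalling genes differed in their share with both marks, which was 24.6% over all promoters. Of 19 Wnt ligands 16 had both marks and 3 H3K27me3 only, and of 10 Frizzled genes, which encode their receptors, 9 had both marks and 1 H3K4me3 only. Of 21 ephrins and Eph receptors, proteins of cell contact signalling, 18 had both marks and 3 H3K4me3 only. Of 20 Bmp and Gdf ligands 12 had both marks, and of 20 Fgf ligands 9 had both, 5 H3K27me3 only, 4 neither and 2 H3K4me3 only. When any annotated protein-coding transcript start counted, 13 Fgf, 12 Bmp and Gdf and 17 Wnt ligands had both marks. Over all 20807 genes, 5715 did with that setting. Of 39 voltage-gated potassium channel subunits 33 had both marks, although these serve excitable cells. Wnt3a, a ligand of the primitive streak, had narrow H3K4me3 peaks of 564, 469 and 359 bp under H3K27me3 regions of 18200, 17200 and 58000 bp. Fzd7 had wide H3K4me3 peaks of 3788, 2807 and 3833 bp and narrow H3K27me3 regions of 1600, 1400 and 1800 bp. The Fzd7 regions held 57, 49 and 76 ChIP reads against 36, 29 and 41 input reads. Wnt3a and Fzd7 are in the class with both marks, and they differ in the width of each mark in 3 of 3 libraries.

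Single genes of early lineages with both marks varied in H3K4me3 width. In the lists called in 3 of 3 libraries the median width was 1082 bp for mesendoderm and 586.3 bp for neural genes, against 1038 bp for all promoters. Sox17, a factor of endoderm, had H3K4me3 peaks of 228, 256 and 541 bp and H3K27me3 regions of 21000, 21200 and 21600 bp, and no H3K27ac call in any library. Pax6, a factor of eye and forebrain, had peaks of 295, 521 and 453 bp and regions of 35200, 43400 and 43000 bp. Eomes, a factor of mesendoderm, had wider peaks of 1921, 2031 and 1598 bp. Olig2, a factor of motor neuron and oligodendrocyte progenitors, had peaks of 491, 499 and 741 bp and log2 ratios of H3K27me3 of 2.34, 2.61 and 2.58.

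Housekeeping lists were mostly H3K4me3 only, the class of 33.8% of all promoters. Of 78 cytosolic ribosomal protein genes 71 were H3K4me3 only, 2 had both marks and 5 neither, and the 5 included Rpl3l, Rpl10l and Rpl39l, known from muscle and testis. Their median H3K4me3 width was 2160 bp (72 genes) against 1038 bp for all promoters. All 19 minichromosome maintenance and origin proteins were H3K4me3 only, as were 31 of 34 complex I subunits, 68 of 78 mitochondrial ribosomal proteins and 30 of 38 proteasome subunits. The 3 proteasome genes with both marks were Psmd5, Psmb8 and Psmb9, of which the last 2 encode subunits of the immunoproteasome. Psmb8 had H3K4me3 peaks of 452, 727 and 235 bp and Psmb9 of 994, 1448 and 1442 bp, within a shared H3K27me3 region of 28400, 24200 and 23600 bp.

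Of 23 pluripotency genes 13 were H3K4me3 only, 4 had both marks (Gbx2, Klf4, Prdm14 and Tbx3), 1 had H3K27me3 only and 5 neither. Over all promoters these classes held 33.8%, 24.6%, 12.3% and 29.4%, in the same order. The pluripotency genes called in 3 of 3 libraries had a median H3K4me3 width of 2464 bp (17 genes), against 1038 bp for all promoters. Pou5f1 had peaks of 2741, 2810 and 3034 bp and Sox2 of 4109, 2160 and 3047 bp, with no H3K27me3 call at either. Sox2 varied more between libraries than Pou5f1. Klf4 had peaks of 2367, 2891 and 2786 bp beside H3K27me3 regions of 3000, 3600 and 2600 bp. Tbx3 had peaks of 1686, 660 and 786 bp under H3K27me3 regions of 30200, 27800 and 44000 bp. Dppa5a and Tcl1 had neither mark, and both carried H3K27ac and H3K4me1 in 3 of 3 libraries. Dppa2, Dppa3 and Fgf4 were H3K4me3 only when any transcript start counted, so their place in the class with neither rests on the 5′ end chosen.

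Subunits of the complexes that write the 2 marks were mostly H3K4me3 only, and those of a related Polycomb complex were divided between H3K4me3 only and both marks. Of all promoters, 33.8% were H3K4me3 only and 24.6% had both marks. Of 11 PRC2 genes 9 were H3K4me3 only, among them Ezh2, Eed and Suz12, the core subunits. Aebp2 had both marks, with a low H3K27me3 log2 ratio of 0.67, 0.42 and 0.49, and Phf19 neither. Of 12 COMPASS and MLL genes 10 were H3K4me3 only and Kmt2c had both marks. Of 18 genes of Polycomb repressive complex 1 (PRC1), 8 were H3K4me3 only and 10 had both marks, among them Bmi1, Cbx2 and Cbx8. Cbx7 was H3K4me3 only, with an H3K27me3 call in library 3 alone. Cbx8 had the high log2 ratios of 2.57, 2.77 and 2.80 in H3K27me3 regions of 69600, 83800 and 73600 bp, and H3K4me3 peaks of 687, 750 and 1173 bp.

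The class with H3K27me3 only, 12.3% of all promoters, held members of several lists, among them 16 of the 39 Hox genes given above. Of all promoters, 24.6% had both marks and 29.4% neither. Of 57 clustered protocadherins, adhesion proteins of neurons in tandem arrays, 36 had H3K27me3 only, 17 both marks and 4 neither. They share H3K27me3 regions, and H3K27ac was called at 4 of the 57, against 37.0% of the class with H3K27me3 only and 62.0% of all promoters. Of 110 keratins and keratin-associated proteins 45 had H3K27me3 only, 4 both marks and 61 neither. Of 14 germline genes 7 had both marks and 7 H3K27me3 only. Dazl, an RNA-binding protein of germ cells, had no H3K4me3 call and H3K27me3 log2 ratios of 1.85, 1.48 and 1.83, while Ddx4, a germ cell helicase, had H3K4me3 peaks of 308, 426 and 534 bp and log2 ratios of 1.29, 1.73 and 1.43. Of 35 chemokines 12 had H3K27me3 only and 17 neither.

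Chemoreceptors filled much of the class with neither mark, which held 29.4% of all promoters. Of 1087 olfactory receptors 1034 had neither mark and 53 H3K27me3 only, and none had H3K4me3. Of 326 vomeronasal receptors 322 had neither. Defensins (56 of 64), serpins (46 of 60), cytochrome P450 genes (60 of 93) and lectin-like receptors of natural killer cells (49 of 56) were also mostly without either mark. Near-identical copies are frequent in these families, and reads that map to several places had been removed, so absence of a call in them is uncertain. The same holds for Hist1 cluster histones, of which 31 of 54 had neither mark and 21 H3K4me3 only, while H3K27ac was called at 41 of the 54, against 62.0% of all promoters.

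Zinc-finger genes with a Zfp symbol were found in all classes, most often in H3K4me3 only. Of 383, 218 were H3K4me3 only, 64 had both marks, 15 H3K27me3 only and 86 neither. Over all promoters these classes held 33.8%, 24.6%, 12.3% and 29.4%, in the same order. Of 18 imprinted genes 9 had both marks, 3 were H3K4me3 only, 3 H3K27me3 only and 3 neither. Cdkn1c, a cell cycle inhibitor, had H3K4me3 peaks of 1849, 1062 and 976 bp in an H3K27me3 region of 117800, 174600 and 125600 bp. At an imprinted gene the 2 parental copies may carry different marks, and the lists do not separate them.

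Among the genes with the highest mean H3K27me3 log2 ratio and both marks in 3 of 3 libraries were Bub3, Hmx3, Scarf2, Mdga2, Tbx2, Rrs1 and Gata2, at 2.97 to 2.87. Tbx2, Gata2 and Hmx3 encode developmental transcription factors. Bub3 encodes a protein of the mitotic spindle checkpoint, and it shared with Hmx3 the H3K27me3 region of 23800, 23800 and 25000 bp, with H3K4me3 peaks of 1199, 1077 and 1103 bp. Hmx2, between them, had the same H3K27me3 values, no H3K4me3 call in any library and a CpG ratio of 0.16. The neighbours Hmx3 and Bub3 had CpG ratios of 0.757 and 0.629. Rrs1, a ribosome assembly factor, had a narrow H3K27me3 region of 600, 800 and 1200 bp that held only 49, 48 and 51 ChIP reads.

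The genes with the widest mean H3K4me3 in the class with both marks were Ptprg, Cux1, Fzd7, Marcks, Fat1, Mtcl1, Foxo1 and Igf1r, at 3871 to 3055.3 bp. Their mean H3K27me3 log2 ratios ran from 0.683 at Fzd7 to 1.979 at Igf1r, on both sides of the class mean of library medians, 1.45. Ptprg, a receptor phosphatase, had H3K4me3 peaks of 3609, 3958 and 4046 bp and H3K27me3 regions of 3800, 3600 and 4000 bp. Marcks had H3K4me3 peaks of 3536, 2966 and 3289 bp and H3K27me3 regions of 1400, 1200 and 1400 bp. At Marcks H3K4me3 was wider than H3K27me3 in 3 of 3 libraries. Its H3K27me3 regions held 71, 62 and 69 ChIP reads against 24, 21 and 24 input reads.

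The widest H3K4me3 in the class without H3K27me3 was found at Trim71, Mycn, Rabggtb, Spry2, Patz1, Rps19, Rpl4 and Zwilch. Trim71, a regulator of stem cell RNAs, had peaks of 5718, 5109 and 4374 bp, and Mycn, a Myc family factor, of 5071, 4437 and 4865 bp. Rpl4 and Zwilch share a window and the same peaks of 4427, 2586 and 4010 bp, so they are a single observation. Spry2, an inhibitor of growth factor signalling, had peaks of 4198, 4336 and 4218 bp and no H3K4me1 call in any library at its window.

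The highest H3K27me3 in the class with H3K27me3 only was found at Oxct2b, Zar1, Gm5868, Samd11, H2-Q1, Hmx2, Gm17428 and Neurod2. Oxct2b, a ketone body enzyme of the testis, had log2 ratios of 7.5, 6.19 and 6.03, which rest on 52, 73 and 68 ChIP reads against 0, 1 and 1 input reads, so their size depends on the input floor. Oxct2b also has a near-identical paralog, and its value is uncertain. Zar1, a factor of the oocyte, had 3.59, 3.64 and 3.45 from 69, 87 and 80 ChIP reads and 5, 7 and 7 input reads. Neurod2, a neuronal factor, had 2.78, 3.02 and 2.88 in regions of 34800, 45000 and 49400 bp, and H3K4me3 in library 3 alone, at 284 bp. Hmx2 and Neurod2 thus lay in wide regions, and Zar1 and Oxct2b in narrow regions with few reads.

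The 6 IκBα-KO libraries of the 2 marks, which the rule did not use, gave the same class for 91.7% of all promoters. The class was kept by 6776 of the promoters with H3K4me3 only (96.4%), 4508 with both marks (88.2%), 2176 with H3K27me3 only (85.4%) and 5627 with neither (91.9%). Of the promoters with both marks, 336 were H3K4me3 only, 260 H3K27me3 only and 6 neither in the KO libraries. Those with both marks in 3 of 3 WT libraries kept the class in 4115 of 4408 cases (93.4%), and the others in 393 of 702 (56.0%). A change from H3K4me3 only to H3K27me3 only or back was seen at 23 promoters. Sox17, Sycp3, Mael, Krt18 and Psmb8, named here after their values were seen, were among those that had H3K27me3 only in the KO libraries. The KO lists called more sequence of H3K27me3, at 265 to 276 Mb per library against 213 to 257 Mb in WT. For H3K4me3 they called 18.6 to 21.7 Mb against 16.9 to 18.9 Mb, and these ranges overlap. The part of these amounts in the result was not tested. Genotype and clone cannot be told apart in this comparison, and it is a description with no test.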

How the data were processed

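ChIP-seq lists of 3 H3K4me3 and 3 H3K27me3 IκBα-WT libraries set the classes. H3K27ac, H3K4me1 and H3K9me3 WT lists and the KO lists of the first 2 marks served for comparison. Per the methods, the authors trimmed reads, aligned them to GRCm38 with Bowtie2 (not stated for H3K27ac and H3K9me3), removed multimapped reads, those of low mapping quality, the Drosophila spike-in and blacklisted sequence, and called each library against input. Without spike-in scaling, levels of a mark cannot be compared between libraries on an absolute scale. The submitters' processing notes name Trim Galore 0.6.6, Bowtie2 2.4.4, SAMtools 1.15, MACS2 2.2.7.1, deepTools 3.5.1 and SICER 0.0.52, the last being epic2 in the methods. For H3K4me3 the deposited MACS2 lists give a fold ratio over input, −log10 p-values and q-values and a score per peak, and no counts. For the other marks the deposited epic2 lists, in 200 bp steps, give the count of ChIP and input reads, a p-value, an FDR, a log2 ratio and a score per region.

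Genes and 5′ ends were those of GENCODE M21 (21951 protein-coding genes, 20807 on chromosomes 1 to 19). Any overlap of 1 bp counted as a call. Per promoter the widest call and the highest enrichment were taken in each library, and medians per class and library were compared with an exact two-sided sign-flip permutation test over 3 libraries. CpG content came from the GRCm38 sequence. The interval code was tested on simulated data. Python 3.11.15, numpy 2.4.6, pandas 2.3.3 and pysam 0.24.0 were used. Members and gene lists were chosen with earlier results of these data known. Genes were named by fixed rules: the 8 highest by H3K27me3 log2 ratio or the 8 widest by H3K4me3 in a class, called in 3 of 3 libraries, and members of the lists described. A gene that this rule named is not reported here. Deviations in bases covered had correlations over 5110 promoters of 0.003, −0.009 and −0.012 between same-numbered H3K4me3 and H3K27me3 libraries. These cannot tell whether such libraries share a clone. Alternatives changed the window, the number of libraries, overlap, thresholds, list length, gene starts, chromosomes and shared windows, and left out each library. Where any transcript start counted, each mark was taken over all starts of a gene separately, so the marks of a gene could lie at different starts.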

Additional observations from a re-analysis of the deposited data

How the results depend on the processing

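The 7 differences between classes (H3K4me3 and H3K27me3 width and enrichment, and the H3K27ac, H3K4me1 and H3K9me3 shares) kept the direction of their mean under every alternative run. In 1 of them the libraries no longer went the same way: with H3K27me3 regions of at least 2-fold, the H3K27me3 width difference was 466.7 bp ± 416 (SD, n = 3, exact permutation p = 0.5). The smallest exact permutation p is 0.25 with 3 libraries and 0.5 with 2, so none could pass a threshold. Class sizes stayed within 1.5 times, with the exception of H3K27me3 only at 1096 promoters when H3K27me3 regions had to reach 2-fold. Of 257 values computed under alternatives, 25 moved beyond the 95% Wilson interval of a share or beyond 1.5 times for a count.

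The share of promoters with the same class in the KO libraries, 91.73%, was 89.26% with the window from 5000 bp upstream to 100 bp downstream, 91.2% when 3 of 3 libraries were needed, 91.06% when 1 was enough, 91.31% with H3K27me3 regions of at least 2-fold and also with windows shared with no other gene, and 91.14% with lists limited to the same number of top-ranked calls. It ranged from 90.8% to 91.55% when a library was left out.

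The CpG-rich share of promoters with both marks, 51.25%, was 71.16% with 500 bp on either side, 1.218% with the window of 5000 bp upstream, 53.99% with 3 of 3 libraries, 48.47% with at least 1 and 55.07% with any protein-coding transcript start. That of H3K27me3 only, 1.216%, was 3.46%, 0.03224%, 2.46% and 0.568% under the first 4 of these, and 2.828% with H3K27me3 regions of at least 2-fold. A longer window dilutes a CpG island by construction. Leaving out a library gave 51.01% to 53.68% with both marks and 1.343% to 1.975% with H3K27me3 only, the latter at 1.975% without H3K4me3 library 1 and 1.845% without library 3.

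With the replicate block, in which same-numbered libraries were paired and the class was the one given by at least 2 of 3 numbers, the classes held 7016 (H3K4me3 only), 5098 (both), 2538 (H3K27me3 only) and 6108 (neither) promoters, 47 had no class, and no direction changed. Whether same-numbered libraries of the 2 marks share a clone cannot be told from the correlations given above. H3K27me3 covered the whole window at 67.0% of promoters with both marks, which leaves little deviation to correlate.

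H3K4me3 lists give no counts per peak, and reads of H3K27me3 entered only within called regions. Narrow or weak marks near the calling threshold are the least certain, as are tandem gene families with near-identical copies.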
